A study of Homo sapiens with 3 samples.

Results

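In all, 6 genes other than DDX41 carried a site with 5 or more edited reads when THP-1 cells expressing DDX41-ADARcd were set against cells expressing ADARcd alone: RNF24, BPNT1, APOL6, GM2A, CRCP and PRR11. They were chosen by that count of edited reads in the DDX41-ADARcd library, with 0 edited reads in the ADARcd library, so these counts are a description and not a test. All sites of the 6 genes were then taken, 74 of the 10407 sites and 6 of the 4036 genes in that list. The 3 site lists of the series together hold 16820 positions in 4245 genes.

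THP-1 is a human monocytic leukemia cell line. The groups were cells with a pGK-GFP retrovirus for DDX41 joined to the hyperactive catalytic domain of ADAR (DDX41-ADARcd), cells with the same vector for that domain alone (ADARcd alone) and cells with the empty vector. Each group was 1 library of total RNA taken 7 days after transduction, so there was no replicate check and every comparison is between libraries. In this method, HyperTRIBE, the fused domain changes A to I in RNA near the protein, which reads as G. The retroviral fusion was expressed in addition to whatever DDX41 the cells make.

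ADAR enzymes deaminate adenosine in double-stranded RNA. In human transcripts most known A-to-I sites lie in Alu elements, short repeats that descend from 7SL RNA, the RNA of the signal recognition particle. When copies of opposite orientation lie near each other in one transcript, often in a 3′ UTR or an intron, they can pair into the double strand that ADAR binds. BC200 RNA, the product of BCYRN1, is itself derived from an Alu element. DDX41 is a DEAD-box RNA helicase of the nucleus and cytoplasm.

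The sequence around the top site, the site of a gene with most edited reads, is shown for 4 genes so that the edited A can be read with its neighbours and, further on, with the stretch that could pair with it. Each run is 21 bases of the GENCODE 29 transcript, 5′ to 3′ on the strand of the gene, with the edited A in capitals:
RNF24, chr20:3929307-3929327, minus strand: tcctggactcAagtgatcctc
BPNT1, chr1:220058630-220058650, minus strand: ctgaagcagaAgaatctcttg
APOL6, chr22:35661200-35661220, plus strand: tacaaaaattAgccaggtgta
CRCP, chr7:66153890-66153910, plus strand: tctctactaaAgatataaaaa

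Coordinates are on GRCh38. The 6 genes are annotated as ENSG00000101236.16 (RNF24), ENSG00000162813.17 (BPNT1), ENSG00000221963.5 (APOL6), ENSG00000196743.8 (GM2A), ENSG00000241258.6 (CRCP) and ENSG00000068489.12 (PRR11). The top site of PRR11 fell on no annotated exon of the same strand, and its sequence is not used here.

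The surroundings of the 5 top sites on a transcript resemble each other over longer stretches. Of the 10 pairs of 301-base windows centred on the top sites, 9 had a blastn match of 100 bases or more, from 209 to 245 bases long and from 69.0% to 82.4% identical. The closest pair was GM2A with CRCP, matched over 216 bases in opposite orientation at 82.4% identity. In 4 of the 9 pairs the match ran in the same orientation, and in 5 in opposite orientation. RNF24 and CRCP were the pair with no match. All 5 top sites lay within 150 bases of a match to 7SL or BC200 RNA, as did 30.7% of 3′ UTR sites of the list. Windows of other sites were not compared here, so these values do not set the 5 genes apart.

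Of the top sites, 4 could be paired with a stretch of the same transcript that matched their reverse complement. The partner stretches of 3 of them are shown for the same 21 bases, 5′ to 3′, with the base that the alignment sets opposite the edited A in capitals:
BPNT1 partner, chr1:220058075-220058095, minus strand: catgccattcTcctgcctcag
APOL6 partner, chr22:35659920-35659940, plus strand: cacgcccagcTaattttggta
RNF24 partner, chr20:3928938-3928958, minus strand: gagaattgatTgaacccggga

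The base opposite was T, which is U in the RNA, in each of these 3 genes. Lengths of inverted matches, here and below, are of the alignment, with gaps counted. The BPNT1 match was 328 bases long at 75.3% identity, with the opposite base 555 bases downstream on the transcript. The APOL6 match was 255 bases long at 80% identity, with the opposite base 1280 bases upstream. Both met the limits set for an inverted repeat, 150 bases and 70% identity within 5000 bases. The RNF24 match (179 bases, 67.0%, 369 bases downstream) and the CRCP match (558 bases, 69.5%) lay below the identity limit and above 65%, a limit added after seeing the data. The CRCP match is a stretch that resembles its own reverse complement. GM2A had no such partner within its annotated transcript.

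**Figure D1:**
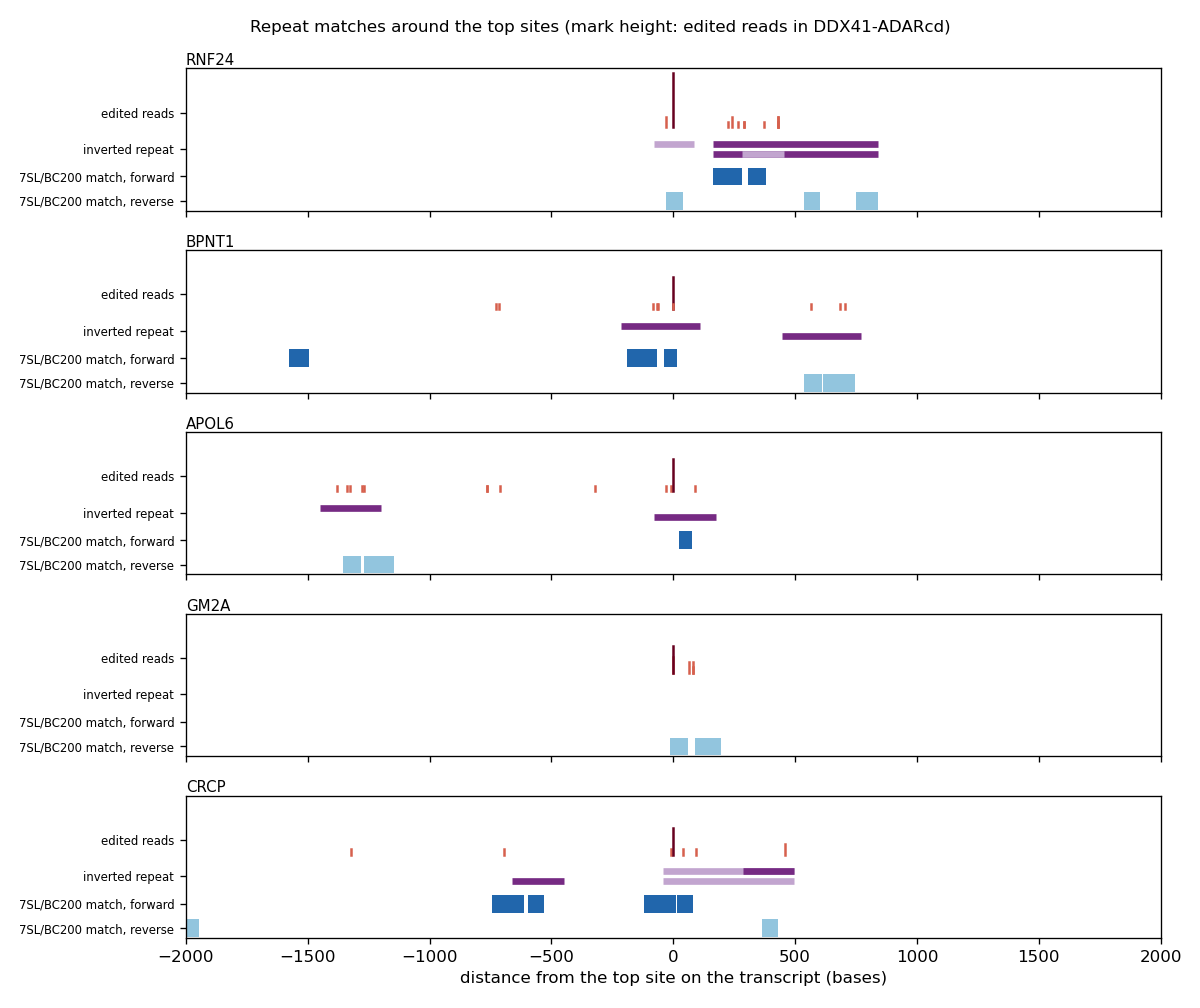
Map of the annotated transcripts of 5 genes, with distance from the top site in bases on the x axis. Marks at the top of each panel are listed sites, with height for edited reads in DDX41-ADARcd (tallest 10, in RNF24); purple bars are the 2 arms of an inverted repeat (pale below 70% identity, and on the same span where a stretch matches its own reverse complement; the RNF24 pale arm overlies the darker one), and blue bars are matches to 7SL or BC200 RNA. The 2 coding sites of BPNT1 stand left of its top site because introns are left out. BPNT1 and APOL6 have separate arms with sites on both, and GM2A has reverse matches only.

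RNF24 encodes a RING finger membrane protein, and its top site had the most edited reads of the list. At position 3929317 of chromosome 20, in the 3′ UTR, 10 of 17 reads were edited in DDX41-ADARcd (58.8%, exact 95% interval 32.9 to 81.6), against 0 of 17 in ADARcd alone, where a count of 0 allows up to 17.6%. Intervals and limits here and below cover counting error only, because reads from PCR are not independent molecules. The other 10 sites of RNF24 all lay within 500 bases of it, the nearest 30 bases away and the farthest 431. Of them, 4 had 2 edited reads, at 3928888 (2 of 9), 3928889 (2 of 8), 3929074 (2 of 11) and 3929347 (2 of 18). Summed over these 10 sites, 14 of 108 reads were edited (13.0%). With the top site, the 11 sites over 462 bases had 24 of 125 (19.2%). Sums over sites, here and below, count a read at every site it covers and leave out unlisted positions. They are not the level of a stretch. Of the 11 sites of RNF24, 9 lay in a stretch from 162 to 842 bases downstream of the top site. That stretch matches its own reverse complement at 73.5% identity, in an alignment of 713 bases with gaps counted. PANK2 runs through the same bases on the opposite strand, so reads of the 2 genes cannot be told apart unless the library kept strand, which is not given in the sources used here.

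BPNT1 encodes a bisphosphate nucleotidase that breaks down a by-product of sulfation reactions. Its top site, at 220058640 of chromosome 1 in the 3′ UTR, had 6 edited of 11 reads in DDX41-ADARcd (54.5%, 23.4 to 83.3), against 0 of 13 in ADARcd alone (up to 23.1%). Every other BPNT1 site rested on 1 edited read. Of those 9 sites, 4 lay within 100 bases, at distances from 1 to 84 bases, and 3 more lay 564 to 706 bases downstream. The first 4 and the top site fell on one arm of the 328-base inverted repeat, and the 3 downstream sites fell on the other arm. The remaining 2 sites were in a coding exon 8722 and 8734 bases away in the genome, at 8.33% and 9.09%, outside any inverted repeat or 7SL match.

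APOL6 encodes an apolipoprotein L family protein. Its top site, at 35661210 of chromosome 22 in the 3′ UTR, had 6 edited of 19 reads in DDX41-ADARcd (31.6%, 12.6 to 56.6), against 0 of 19 in ADARcd alone (up to 15.8%). The other 12 sites had 1 edited read each, with levels from 5.56% to 14.3%. Here too sites lay on both arms: 3 others beside the top site, at distances of 11, 31 and 89 bases, and 5 on the upstream arm, 1270 to 1381 bases away. The 4 sites between the arms had no partner and no 7SL match within 150 bases. Each of them had 1 edited read, of 7 to 17 reads.

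GM2A encodes the GM2 activator, a lysosomal cofactor for the breakdown of gangliosides. Its 5 sites in the 3′ UTR were the tightest group, all within 84 bases, and 4 of them had 2 or more edited reads. At the top site, 151268256 of chromosome 5, 5 of 28 reads were edited in DDX41-ADARcd (17.9%, 6.06 to 36.9), against 0 of 38 in ADARcd alone (up to 7.89%). The adjacent A at 151268255 had 3 of 28 reads (10.7%), against 0 of 38 in ADARcd alone. The sites at 151268320 and 151268335 had 2 of 14 and 2 of 20 reads, and the last, at 151268338, had 1 of 18. GM2A was also the gene read most deeply at its top site, and no other of the 6 had its second site so close to the first in edited reads.

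CRCP encodes a component of the CGRP receptor complex that is also a subunit of RNA polymerase III. Its top site, at 66153900 of chromosome 7 in the 3′ UTR, had 5 edited of 19 reads in DDX41-ADARcd (26.3%, 9.15 to 51.2), against 0 of 12 in ADARcd alone (up to 25.0%). Of its 6 other sites, 4 lay within 500 bases, and one of them, at 66154360, had 2 of 10 reads edited. That site met the inverted repeat limits, with a 216-base match at 77.3% identity. The antisense gene AC068533.3 spans all 7 sites.

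PRR11 encodes a proline-rich protein tied to the cell cycle, and it had 28 of the 74 sites. Its top site, at 59203390 of chromosome 17, had the highest level of the 6 top sites, 6 edited of 9 reads in DDX41-ADARcd (66.7%, 29.9 to 92.5), against 0 of 16 in ADARcd alone (up to 18.8%). The deposited list marks it as exon, whereas GENCODE 29 places it in an intron. The nearest other site was 122 bases away, the widest such gap among the 6 genes, and 13 of the other 27 lay within 500 bases. Besides the top, 6 sites had 2 or 3 edited reads, at most 3 of 19 (15.8%, at 59203604) and 3 of 28 (10.7%, at 59201916). Summed over its listed sites, a run of 9 over 743 bases in the 3′ UTR had 12 edited of 252 reads (4.76%). The run of 18 sites over 1674 bases that holds the top site had 28 of 332 (8.43%), summed likewise. AC099850.2 on the same strand spans 27 of the 28 sites, both runs included, and AC099850.3 on the opposite strand spans 14, so their reads cannot be assigned to PRR11 alone. None of the 23 PRR11 sites on a transcript had an inverted partner within that transcript, and 21 lay within 150 bases of a 7SL or BC200 match.

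The 6 top sites differed in how far they stood from the limit in ADARcd alone. The lower bound in DDX41-ADARcd was above the limit that a count of 0 allows in ADARcd alone for RNF24, BPNT1 and PRR11. For APOL6, GM2A and CRCP it was below that limit. For BPNT1 the values were nearly tied, 23.4% against 23.1%. The lower bound comes from an exact interval, whereas the limit is 3 reads of the depth, so they differ in kind. The place of BPNT1 thus depends on how the limit is set. Since the sites were picked for many edited reads in one library and 0 in the other, these bounds describe the sites and test nothing.

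**Figure D2:**
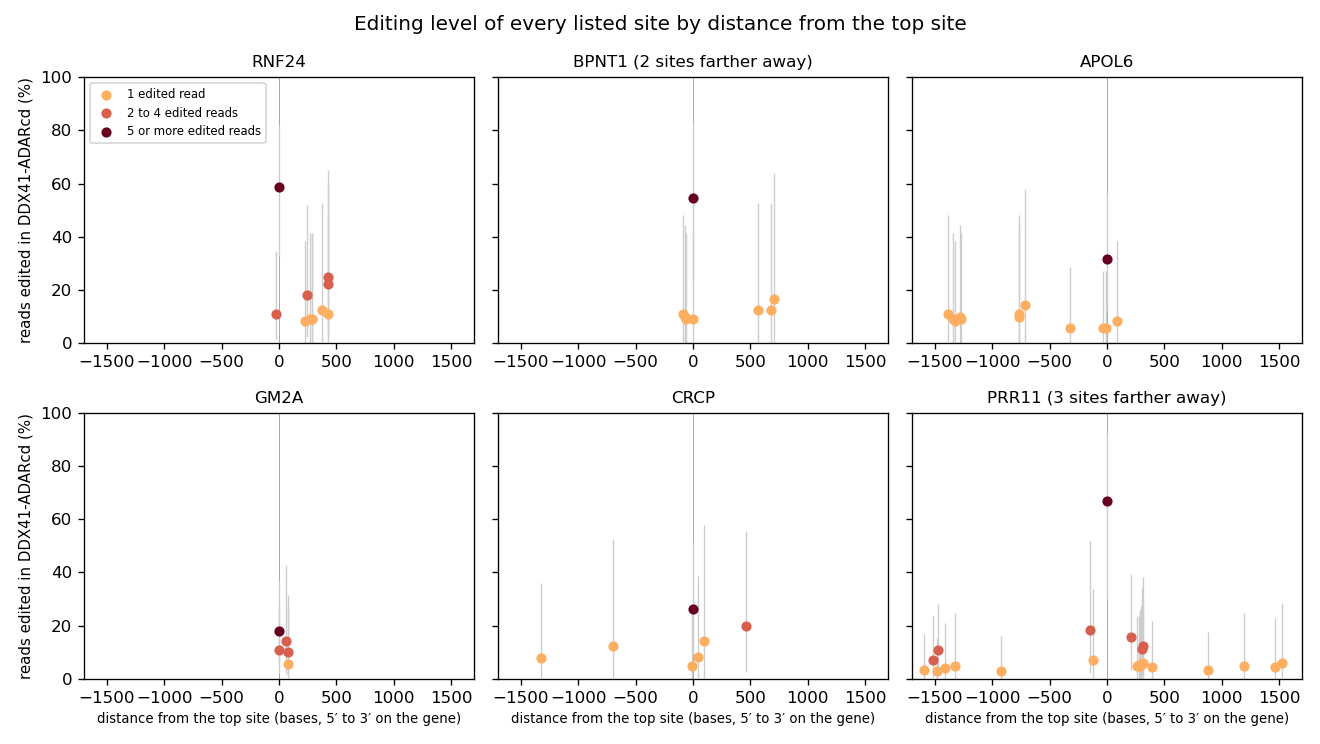
Percent of reads edited in DDX41-ADARcd at each listed site (y axis, bars are exact 95% intervals) against its distance from the top site in the genome, 5′ to 3′ on the gene (x axis, bases); the panel titles count the sites beyond the drawn range. In each panel the top site stands above the others, which its choice as the site with most edited reads favours. The extremes are 17.9% in GM2A and 66.7% in PRR11, and the intervals are wide because 6 to 34 reads cover a site.

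Away from the top sites each site had few edited reads. The 6 top sites held 38 of the 123 edited reads, and the other 68 sites held 85. Of the 74 sites, 54 rested on 1 edited read, and 20 had 2 or more (27%, 17.4 to 38.6), beside 16.1% over the whole list, a share that the choice of members raises. Levels at the other sites had a median of 9.09%, beside 3.7% over all sites of the list, which were read more deeply. A level of 10% or more was reached at 33 of the 74 sites (44.6%), beside 21.5% of the list. In all, 7 pairs of sites were neighbouring bases, in RNF24, BPNT1, APOL6, GM2A and PRR11.

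Sites of these genes were crowded. Another listed site of the same gene lay within 500 bases of 71 of the 74 (95.9%), beside 45% of all sites of the list. Within 500 bases of the top sites lay 39 of the 68 others, with 53 edited reads. Within 100 bases lay 15, and within 1000 bases 48. Genes with 5 or more sites made up 13.1% of the genes of the list (527 of 4036), the median gene had 1 site, and all 6 genes had at least 5.

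The depth behind these values was low in both libraries. DDX41-ADARcd had 6 to 34 reads at the 74 sites (median 15) and ADARcd alone had 11 to 57 (median 20). Over all sites of the list the medians were 30 and 45 reads, and over its 3′ UTR sites 19 and 29. The median ratio of reads in DDX41-ADARcd to reads in ADARcd alone was 0.708 over the 74 sites, with an order-statistic 95% interval of 0.615 to 0.786. That interval takes the sites as independent. They come from 6 genes and neighbouring sites share reads, so it can be too narrow. The median ratio was 0.661 over all sites of the list, whose 5th to 95th percentiles ran from 0.34 to 1.08. Median ratios by gene ran from 0.529 in GM2A and 0.579 in RNF24 to 0.748 in PRR11 and 0.867 in CRCP. At the 6 top sites the median ratio was 0.923, and at the CRCP top site DDX41-ADARcd had more reads than ADARcd alone, 19 against 12. The part of depth in the edited read counts was not tested.

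**Figure D3:**
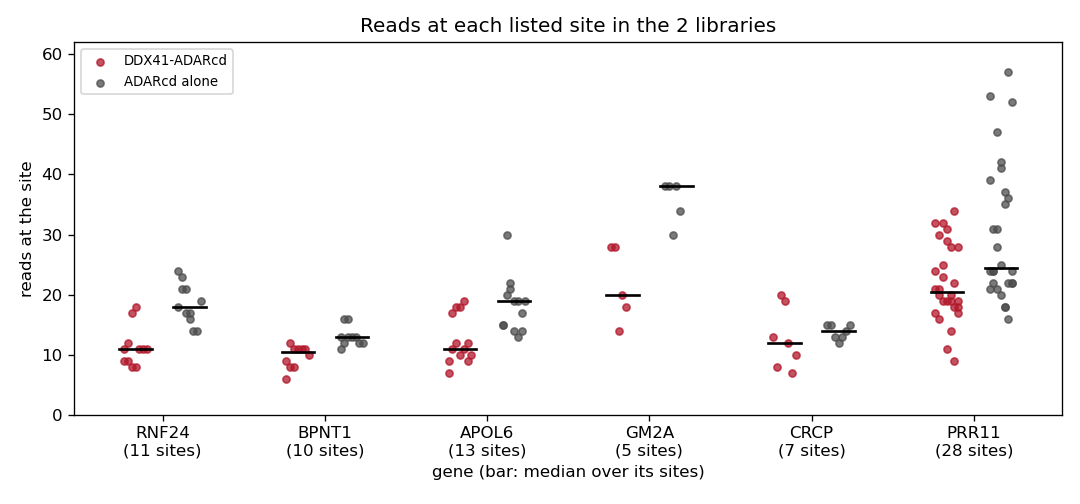
Reads at each listed site (y axis) in DDX41-ADARcd (red) and ADARcd alone (grey) for the 6 genes, with bars for the medians over sites. Medians run from 10.5 to 20.5 reads in DDX41-ADARcd and from 13 to 38 in ADARcd alone.

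Position in the gene and repeat sequence were not used to choose the genes. Of the 74 sites, 66 lay in a 3′ UTR (89.2%), beside 28.6% of all sites of the list, 3 in a coding exon, 3 in an intron and 2 past the annotated end of PRR11. Of the 69 sites on an annotated transcript, 27 had an inverted repeat partner (39.1%, 27.6 to 51.6), beside 5.49% of all such sites. The 27 were 9 each in RNF24 and APOL6, 8 in BPNT1 and 1 in CRCP, and GM2A and PRR11 had 0. Among 3′ UTR sites alone the shares were 40.9% in the 6 genes and 16.6% in the list. At 80% identity and 200 bases, 9 sites, all APOL6 sites, had a partner, beside 2.2% of the list. Sites of one gene share a transcript and often a repeat, so the 69 are not independent and the interval covers counting error only.

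Matches to 7SL or BC200 RNA covered 34 of the 69 sites (49.3%), beside 6.58% of all sites on a transcript, with a match taken as 50 bases or more at 70% identity. Within 150 bases of such a match lay 60 of the 69 (87%), beside 10.7%, in all 6 genes. For 3′ UTR sites alone that share was 90.9% in the 6 genes and 30.7% in the list. This search was added after seeing the data. No repeat annotation was used, so the matches were not assigned to Alu elements.

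Of the bases beside the edited A, the base after it was close to the list, and the base before it differed more. G followed it at 29 of 69 sites (42%, 30.2 to 54.5), beside 37.1% of the list. It followed the A at 4 of the 5 top sites with a sequence, those of BPNT1, APOL6, GM2A and CRCP, and A followed in RNF24. Of the 18 sites on a transcript with 2 or more edited reads, 9 had G after, and of the 51 with 1 read, 20 did (39.2%). A or T preceded the edited A at 42 of 69 sites (60.9%, 48.4 to 72.4), beside 42%, and G at 11 (15.9%, 8.24 to 26.7), beside 28.5%. ADAR enzymes are known to favour A or U before the edited base, to avoid G there and to favour G after it.

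**Figure D4:**
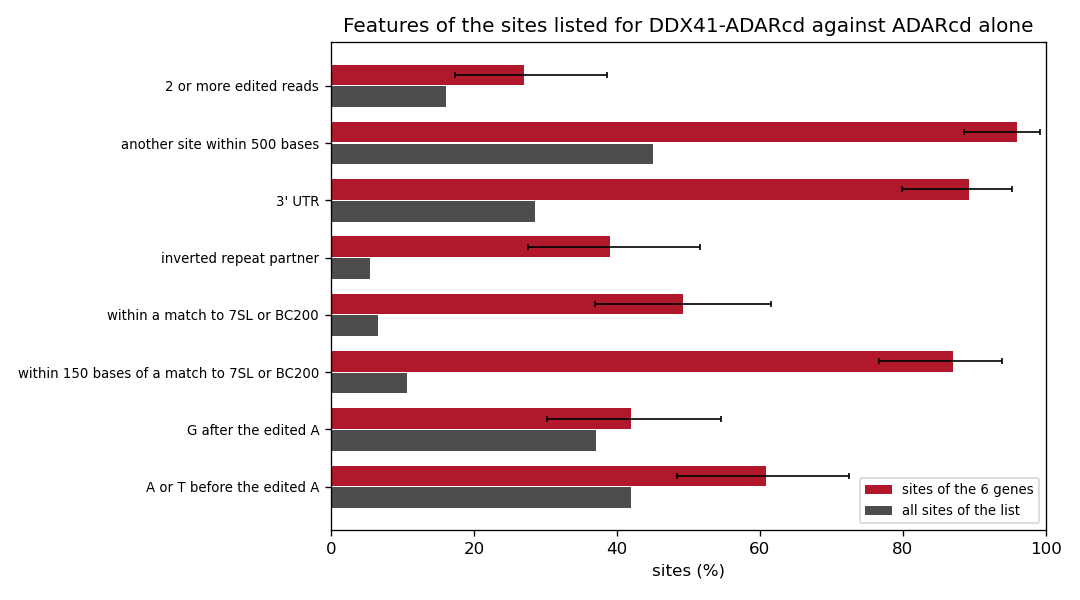
Percent of sites with each feature (x axis) for the 6 genes (red, above, with exact 95% intervals) and for all sites listed for DDX41-ADARcd against ADARcd alone (grey, below); bars for repeats and bases count sites on an annotated transcript. The share in a 3′ UTR is 89.2% in the 6 genes and 28.6% in the list, and that with an inverted repeat partner 39.1% and 5.49%. The share with G after the edited A is 42% and 37.1%, and that with A or T before it 60.9% and 42%.

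None of the 74 positions, and no position of the 6 genes, was listed against the empty vector, either for DDX41-ADARcd or for ADARcd alone. The two-sided Fisher's exact test therefore covered 0 of their sites. It called 0 of 3512 sites (0%) higher in DDX41-ADARcd and 13 of 6412 (0.203%) higher in ADARcd alone, with Benjamini-Hochberg adjustment. Every position of those lists had 0 edited reads in the empty vector and at least 1 in the other library. The direction was thus fixed by the listing. The fewest reads in the empty vector at any position of those lists was 10. Of the 5103 sites with 6 to 34 reads in DDX41-ADARcd, the range of the 74, 77 were also listed against the empty vector (1.51%), beside 29.9% of all sites. The level of these 74 sites in cells with the empty vector is thus not known here.

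Just outside the choice stood 19 genes whose best site had 4 edited reads. Their levels ran from 0.885% in RPL17, on 452 reads, to 66.7% in ZNF431, on 6. Of the 19 best sites, 11 lay in a 3′ UTR, 7 had an inverted repeat partner (AAK1, GINS1, PGAM5, PGPEP1, SLC35E2B, SPN and ZNF431) and 13 lay within 150 bases of a 7SL or BC200 match. Of the 7 sites of the list on a transcript with 5 or more edited reads, 2 had a partner (BPNT1 and APOL6). Within 150 bases of such a match lay 5, all top sites of the 6 genes. These repeat features were thus not particular to the 6 genes. DDX41, left out by the choice, had 8 of 242 and 8 of 183 reads at its best sites, in coding exons with no inverted partner and no such match. The transgene carries DDX41 sequence too, and its reads cannot be told apart from those of the cells' own gene.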

How the data were processed

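Each of the 3 tables deposited by the authors lists A-to-G positions for a pair of libraries, and its values are counts: per the file headers, reads with each base and total reads at the position, not normalized. Library totals are not used here. The submitters' processing notes name CASAVA 1.4, FastQC 0.11.7, STAR 2.5 and mm10, with no roles, and no source used here names the site caller. Headers do not say which library a column is; the edited columns were read as the library that opens the table's title. Both tables of DDX41-ADARcd gave equal read totals for it at 3114 of 3114 shared positions. Of 15766 positions on a GENCODE 29 (GRCh38) transcript, 99.9% held A, as did all 69 of the 6 genes.

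The 6 genes and the lists were chosen with earlier results of these data known. All sites of the 6 genes are reported. The sequences at the GM2A top site and the CRCP partner are not reported here. Entries that repeat a position were joined. Levels have exact Clopper-Pearson 95% intervals, and a count of 0 is given with 3 reads of the depth. Every site of a list with 10 or more reads in both libraries entered the two-sided Fisher's exact test (scipy 1.17.1) against the empty vector, with Benjamini-Hochberg adjustment and a threshold of 0.05. Inverted repeats were sought by blastn 2.17.0 of the longest annotated transcript holding a site against its own reverse complement, which misses partners in introns or beyond the transcript. The search and the test were tried on simulated data. Alternatives were other minimums of reads and edited reads, windows, match limits, Bonferroni adjustment and reads halved. Marker lists were checked too. Of 10 myeloid markers, 4 had sites in the list of DDX41-ADARcd against ADARcd alone (CD68, CSF1R, LYZ and SPI1), and of 3 T cell and 3 B cell markers 0 did; a site list shows edited reads, not expression.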

Additional observations from a re-analysis of the deposited data

How the results depend on the processing

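The count of sites of the 6 genes depended on the minimum of reads: 19 of the 74 had 20 reads or more in each library, and 20 had 2 or more edited reads. Of these 20, 9 had 3 or more edited reads and 5 had 20 reads in each library. Of the 39 other sites within 500 bases of a top site, 15 remained at 100 bases and 12 with 2 or more edited reads. The median read ratio of 0.708 became 0.923 at the 6 top sites alone. Sites with an inverted repeat partner numbered 9 at 200 bases and 80% identity, against 27, and sites with G after the edited A numbered 9 of 18 with 2 or more edited reads. Sites by a 7SL or BC200 match numbered 60 within 150 bases, against 34 inside one. For the counts, the narrower or wider limit itself changed them; for the read ratio the cause was not tested. The counts within 1000 bases (48) and with every entry counted (74) stayed within 1.5 times. So did the partner counts of 27 within 2000 bases, 33 at 65% identity and 29 at 100 bases. Their shares over list sites on a transcript were 4.6%, 5.89% and 5.93%, beside 5.49% at the limits as set. The tests against the empty vector held 0 sites of these genes under every alternative run, because none was listed. No paired analysis was possible because each group is 1 library. Depth limits the levels: at 6 to 34 reads, 1 edited read is a level of 2.94% to 16.7%.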

Other observations

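Outside the 6 genes, sites of the same list with 3 or 4 edited reads had an inverted repeat partner at a higher share than sites with 1 or 2. Without those genes, a partner was found for 4.68% of 7990 sites with 1 edited read, 6.95% of 1411 with 2 and 32.5% of 77 with 3 or 4, and sites within 150 bases of a 7SL or BC200 match made up 9.21%, 13% and 57.1%. The 2 sites with 5 or more edited reads outside the 6 genes, both in DDX41, had neither. Median depth in DDX41-ADARcd was 32, 33 and 22 reads in these classes. In the list of ADARcd alone against the empty vector, partners were found for 0.28% of 4636 sites with 1 edited read and 5.04% of 258 with 5 or more. In between, the shares were 1.02%, 5.26% and 2.11% at 2, 3 and 4 edited reads. For DDX41-ADARcd against the empty vector, partners were found for 0.473% of 2749 sites with 1 edited read and 26.7% of 30 with 5 or more. Both lists hold deeper positions, with medians of 277 and 332 reads for ADARcd alone and 214 and 162 for DDX41-ADARcd. Their shares thus cannot be set directly against those of DDX41-ADARcd against ADARcd alone. No test was made of these shares.

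A chosen list of genes known for A-to-I edited transcripts, without the 6 genes, was looked up as well. Of 24 such genes, 15 had sites for DDX41-ADARcd against ADARcd alone, 103 sites in all. An inverted repeat partner was found for 63 of these sites, beside 5.49% of all sites of the list on a transcript. The share of all expressed genes with a listed site is not known here, so the gene counts have no background. The choice of the 6 genes left no site with 5 or more edited reads to the others in that list. SPN, the leukocyte sialoglycoprotein, held 36 of the 103 and 28 of the 63. MAVS, the adaptor of cytoplasmic RNA sensing, had a partner at 8 of 9 sites, and CTSS, the protease cathepsin S, and PSMB2, a proteasome subunit, at 6 of 7 each. AZIN1, edited in a coding exon in human tissues, had 2 of 18 reads at its best site (11.1%) and 0 partners at its 4 sites. Against the empty vector, 4 of the 24 genes had 24 sites for DDX41-ADARcd, 6 of them with 5 or more edited reads and at most 11. For ADARcd alone 7 of them had 37 sites, 9 with 5 or more edited reads and at most 30.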
